A study of Homo sapiens with 12 samples.

Results

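The aryl hydrocarbon receptor (AhR) is a transcription factor that binds planar aromatic compounds and tryptophan metabolites. The 7 genes described here are the receptor gene AHR, its dimer partner ARNT, its repressor AHRR, and 4 of its best known targets, CYP1A1, CYP1B1, TIPARP and ALDH3A1. They were taken as a fixed list of names, chosen with earlier results of these data known. All 7 were found among the 19775 genes that the array represents by probe sets of 1 gene. Each gene was read from 1 probe set (the group of short probes that reports a transcript), chosen by the highest mean over the 12 arrays and avoiding probe sets marked for cross-hybridisation (suffix _x_at) where possible. Values are log2 expression values made by the authors with GCRMA, and a log2 value of 4 was taken as the floor under which a probe set was not read as a level.

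Without a ligand, AhR waits in the cytoplasm in a complex with HSP90 and the cochaperone p23. A ligand sends it to the nucleus, where it pairs with ARNT and binds DNA elements that hold the core GCGTG in front of genes of foreign compound metabolism. AHRR and TIPARP are themselves targets that limit the receptor, which makes them part of its feedback. In the kidney the receptor is known from work on dioxin-like compounds and on uraemic toxins derived from tryptophan.

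The 12 arrays came from HK-2 cells, an immortalised human renal proximal tubular epithelial line, and all groups share that line, its plating a day ahead to near confluence, and a medium whose supplements include EGF, hydrocortisone and insulin. Cells exposed to a compound labelled Di for 12 h or 48 h were set against cells given the vehicle (control) for the same time, with 3 biological replicates in each of the 4 groups. What the compound Di is and its dose are not given in the sources used here. Whether the replicates were cultured on separate days is likewise not given, so p-values measure the spread between these arrays.

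As a check of the cell label, all 5 epithelial markers (KRT8, KRT18, KRT19, EPCAM and CDH1) passed the floor in at least 3 arrays. KRT8 and KRT18 were each read from their only probe set, which is marked for cross-hybridisation. Of 9 markers of mature proximal tubule, LRP2, CUBN and AQP1 among them, 0 passed. None of the 4 endothelial or the 4 leukocyte markers on the array passed. Of 6 fibroblast markers, COL1A1, DCN and LUM passed and COL3A1, PDGFRA and PDGFRB did not. Array medians lay between 2.97 and 3.06, and correlations between arrays of 1 group were 0.995 to 0.998 over all probe sets, a description across features that are not independent of each other. The array that stood farthest from its own group was replicate 2 of Di at 12 h (root mean square 0.252 on the log2 scale over the tested genes), and values without it are given for AHR and ARNT.

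Promoter windows from RefSeq (GRCh38.p14, 250 bases before to 50 bases after a start site) were matched by symbol for 5 of the 7 genes: AHR, AHRR, ARNT, CYP1A1 and TIPARP, with 8 windows in all. The core GCGTG, searched on both strands so that CACGC also counts, stood in 5 of the 8 windows (those of AHR, AHRR, CYP1A1 and TIPARP), and 36.5% of all 35116 windows hold it. The longer form TNGCGTG, which contains the core, stood in a window of 1 gene, AHRR, against 5.51% of all windows. These 3 target windows are shown because they are targets that hold the core, 2 of them read under the floor and 1 far above it: CYP1A1 (chr15:74725479-74725778, minus strand), the first window of AHRR (chr5:321464-321763, plus strand) and the first window of TIPARP (chr3:156674340-156674639, plus strand). Capitals mark the core or its reverse complement.
CYP1A1: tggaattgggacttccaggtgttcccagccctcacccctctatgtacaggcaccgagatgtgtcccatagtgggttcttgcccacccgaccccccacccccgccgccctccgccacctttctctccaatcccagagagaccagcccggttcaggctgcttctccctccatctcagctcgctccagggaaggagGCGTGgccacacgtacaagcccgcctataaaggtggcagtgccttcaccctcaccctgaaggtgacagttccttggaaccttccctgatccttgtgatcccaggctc
AHRR: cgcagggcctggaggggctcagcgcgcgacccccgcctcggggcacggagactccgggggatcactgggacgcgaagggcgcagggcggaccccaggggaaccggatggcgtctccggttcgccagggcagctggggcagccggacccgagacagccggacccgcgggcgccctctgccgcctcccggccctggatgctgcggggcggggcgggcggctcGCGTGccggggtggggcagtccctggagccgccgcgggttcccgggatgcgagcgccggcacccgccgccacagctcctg
TIPARP: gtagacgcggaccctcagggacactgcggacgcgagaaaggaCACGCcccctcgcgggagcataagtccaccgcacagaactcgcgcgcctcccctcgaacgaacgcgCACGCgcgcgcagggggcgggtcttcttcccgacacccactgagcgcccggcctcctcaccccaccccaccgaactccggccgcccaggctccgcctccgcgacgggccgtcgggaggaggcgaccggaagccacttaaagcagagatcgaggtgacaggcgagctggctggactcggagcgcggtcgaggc
The core begins 57 bases before the start in CYP1A1 and 30 bases before it in AHRR, and TIPARP holds it as CACGC at 208 and 142 bases before the start. A match in so short a window describes letters only, and the windows that hold the core belong to genes under the floor (CYP1A1 and AHRR) and above it (TIPARP and AHR).

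Of the 7 genes, 4 passed the floor in at least 3 arrays (AHR, ARNT, CYP1B1 and TIPARP), and the other 3 (AHRR, CYP1A1 and ALDH3A1) did so in none. The data show 1 large movement, in CYP1B1, which was 4.31-fold lower in Di than in control at 48 h. The receptor gene AHR and the feedback gene TIPARP did not pass the test between Di and control at either time. The classical reporter gene of the receptor, CYP1A1, gave no value above the floor on any array.

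**Figure D1:**
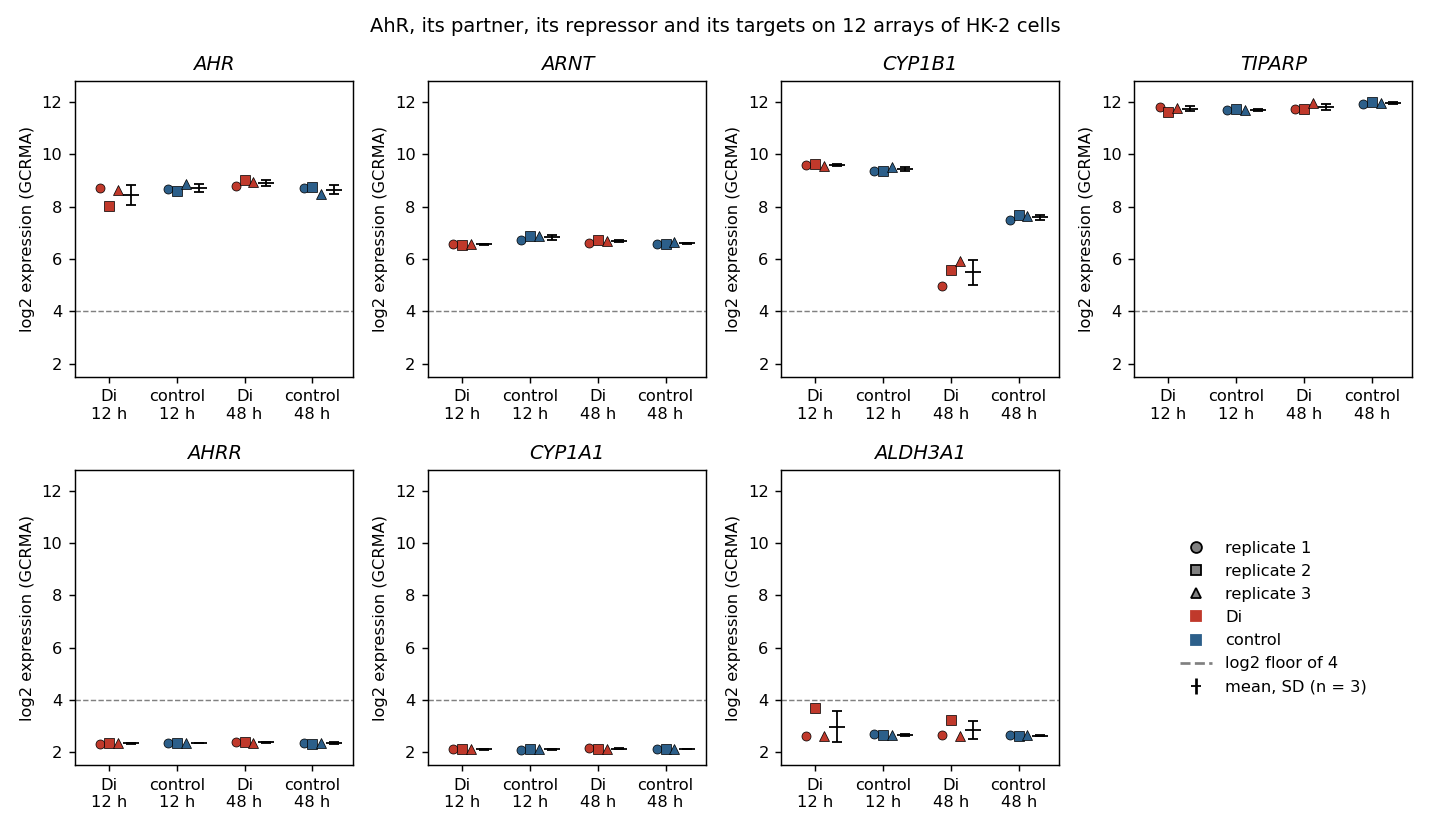
Log2 expression (vertical axes, the same scale in every panel) of the 7 genes on each array, with Di left of control at 12 h and at 48 h, symbols for the replicates and bars for mean and SD. CYP1B1 is the gene whose groups separate widely, from a mean of 9.59 in Di at 12 h down to 5.49 in Di at 48 h, while AHRR, CYP1A1 and ALDH3A1 stay under the dashed floor of 4.

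AHR encodes the receptor itself. It read 8.71, 8.02 and 8.63 in Di at 12 h, against 8.69, 8.59 and 8.87 in control at 12 h. At 48 h it read 8.79, 9.01 and 8.93 in Di, against 8.73, 8.76 and 8.47 in control. At 12 h the groups overlapped, with replicates 1 and 3 of Di among the controls and replicate 2 well below them, whereas at 48 h all 3 Di values lay just above all 3 control values. In order of mean level the groups ran from 8.91 ± 0.115 in Di at 48 h (SD, n = 3 as for all group values here) through 8.72 ± 0.138 in control at 12 h and 8.65 ± 0.159 in control at 48 h down to 8.45 ± 0.379 in Di at 12 h, and each overlapped the next in this order.

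The change of AHR was -0.26 ± 0.165 at 12 h (log2, Di minus control, ± SE of the limma fit, adjusted p = 0.312) with a 95% interval of -0.63 to 0.10. At 48 h it was 0.25 ± 0.165 (limma adjusted p = 0.225) with an interval of -0.11 to 0.62. The difference between these changes was 0.52 ± 0.233 (limma adjusted p = 0.103), and it was called without replicate 1 of Di at 12 h (0.65, adjusted p = 0.0477). Without replicate 2 of Di at 12 h, the 12 h change was -0.05 (limma adjusted p = 0.837) and the difference 0.30 (adjusted p = 0.138).

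ARNT, the partner that AhR shares with the hypoxia factors, read 6.57, 6.53 and 6.57 in Di at 12 h, against 6.72, 6.88 and 6.87 in control at 12 h. It read 6.62, 6.71 and 6.70 in Di at 48 h, against 6.59, 6.57 and 6.63 in control at 48 h. Control at 12 h stood above the other 3 groups without overlap, and those 3 lay close together, with Di at 48 h overlapping control at 48 h and control at 48 h overlapping Di at 12 h.

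At 12 h ARNT was lower in Di, with a log2 change of -0.27 ± 0.0647 (1.20-fold, limma adjusted p = 0.0212), and at 48 h it differed by 0.08 ± 0.0647 (adjusted p = 0.308, 95% interval -0.06 to 0.23). The difference between these Di changes was itself past the threshold, at 0.35 ± 0.0915 (limma adjusted p = 0.0107). In that comparison 1 of the 4 genes was called higher (ARNT) and 1 lower (CYP1B1), beside 38.3% of all genes called, 19.8% higher and 18.5% lower. ARNT was the only one of the 4 genes called at 12 h, where 13.7% of the 10626 tested genes were called (28.5% of those calls higher). Together with CYP1B1 it made 2 of 4 genes whose Di and control values did not overlap at 12 h, against 34.8% of all genes. With arrays centred on the median of the tested genes, a setting added after seeing the data, 54.3% of the 12 h calls were higher and ARNT stood at -0.18 (adjusted p = 0.132). Its call held in 13 of 24 alternatives. It ended without replicate 3 of Di at 12 h (-0.27, adjusted p = 0.052) and without replicate 2 (-0.24, 0.082) or replicate 3 (-0.24, 0.0756) of control at 12 h.

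None of the other 3 probe sets of ARNT above the floor was called at 12 h, and they did not share 1 direction. Probe set 231016_s_at read 5.63, 4.86 and 5.81 in Di at 12 h, against 5.20, 5.22 and 5.06 in control at 12 h, which is a change of 0.27 in the opposite direction (limma over all 21715 kept probe sets, adjusted p = 0.429). Probe set 230619_at stood at -0.63 ± 0.267 (adjusted p = 0.15), a larger change in the same direction with a larger error, and 218222_x_at at -0.06 (adjusted p = 0.665), and the mean of the kept probe sets stood at -0.17 (adjusted p = 0.386). Replicate 2 of Di at 12 h was the lowest of the 12 arrays in all 4 of these probe sets, and without it the named probe set stood at -0.25 (adjusted p = 0.0421). For actin, the log2 value of the 3' probe set exceeded that of the 5' probe set, which reflects how intact the RNA was, by 1.22 ± 0.239 in the Di arrays and 1.71 ± 0.178 in the control arrays of 12 h (exact permutation p = 0.1, two-sided, which 3 against 3 arrays cannot go below). The part of this gap in the 12 h result was not tested.

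**Figure D2:**
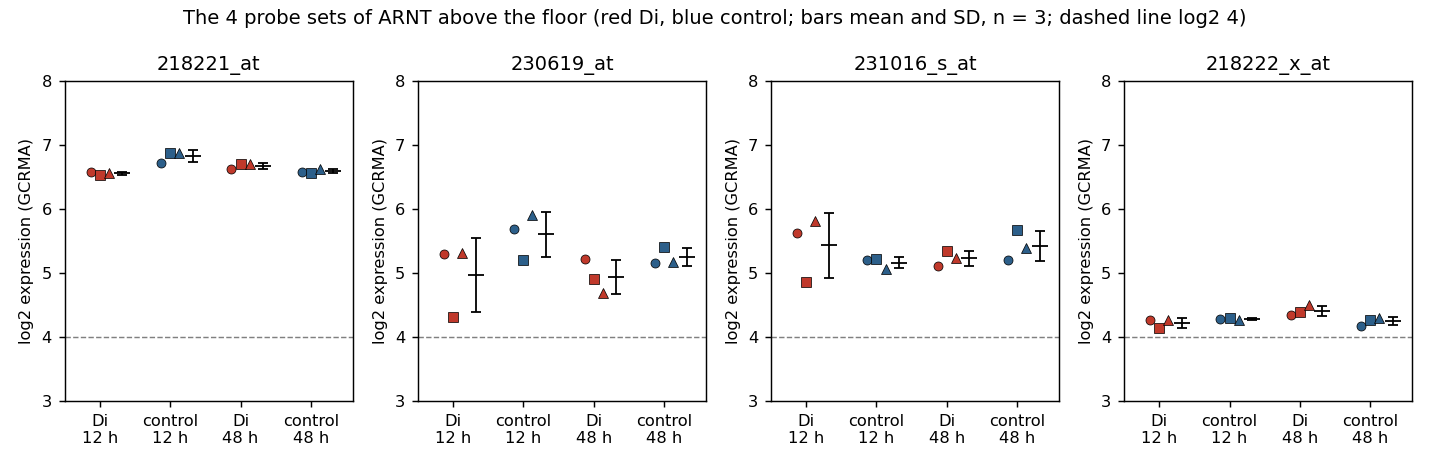
Log2 expression of ARNT on each array for the 4 probe sets above the floor of 4 (1 panel each, same vertical scale), with Di left of control at each time, bars for mean and SD. In 218221_at the 3 Di arrays at 12 h (6.53 to 6.57) lie under the 3 controls (6.72 to 6.88), and in the other 3 panels the 12 h groups overlap.

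AHRR, the repressor that competes with AhR for ARNT, lay between 2.33 and 2.39 on all 12 arrays, so no level was read and no fold is given. Its only probe set was 229354_at, and its group means were 2.35 in Di, against 2.36 in control, at 12 h, while those of 48 h were 2.38 in Di, against 2.36 in control. With no filter, its adjusted p in limma was 0.879 at 12 h and 0.553 at 48 h.

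CYP1B1 encodes a cytochrome P450 that oxidises oestrogens and polycyclic aromatic hydrocarbons and is present outside the liver in many cell types. It read 9.58, 9.63 and 9.55 in Di at 12 h, against 9.37, 9.38 and 9.51 in control at 12 h. It read 4.98, 5.56 and 5.92 in Di at 48 h, against 7.49, 7.67 and 7.62 in control at 48 h. At 12 h all 3 Di values lay slightly above the controls, and at 48 h all 3 lay far below them, with a spread in Di (SD 0.479) wider than in control (SD 0.0953). The order of the levels was Di at 12 h (9.59), control at 12 h (9.42), control at 48 h (7.59) and Di at 48 h (5.49), with no overlap between neighbours.

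At 12 h the change of CYP1B1 was 0.17 ± 0.18 (log2, limma adjusted p = 0.58, 95% interval -0.23 to 0.56). At 48 h CYP1B1 fell by 2.11 on the log2 scale in Di (-2.11 ± 0.18, 4.31-fold lower, limma adjusted p = 2.39e-06, 95% interval -2.51 to -1.71). Only 135 of the 10626 tested genes, itself included, had a change at or below this value. The difference between the changes at 48 h and at 12 h was -2.28 ± 0.255 (limma adjusted p = 4.78e-05). CYP1B1 was the 1 gene of the 4 called at 48 h, where 50.9% of all tested genes were called, a larger share than 1 of 4. AHR and CYP1B1 were the 2 of 4 genes whose groups did not overlap at 48 h, against 61.6% of all genes. Since bulk RNA was measured, fewer cells with the transcript and less transcript per cell cannot be told apart.

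CYP1B1 was also lower in the later of the vehicle cultures. Control at 48 h lay below control at 12 h, with a log2 change of -1.83 ± 0.18 (3.54-fold, limma adjusted p = 8.71e-06), a comparison in which 52.9% of all genes were called. Of the 4 genes 2 were lower there (CYP1B1 and ARNT) and 1 higher (TIPARP), beside 31% and 21.9% of all genes, and the same 3 did not overlap, beside 65.1% of all genes. For ARNT that change was -0.23 ± 0.0647 (adjusted p = 0.0107), a call that ended with quantile normalization (-0.20), centring on the tested genes (-0.15) and the mean of its probe sets (-0.09). This comparison and Di against control at 12 h share the 3 control arrays of 12 h. The level in Di at 48 h was thus lower than in a control group that was itself below both 12 h groups. Some fibroblast markers were lower alongside: of the 3 of 6 above the floor, DCN stood at 8.89 ± 0.136 in Di, against 9.90 ± 0.0658 in control, at 48 h (limma adjusted p = 2.12e-06). LUM read 7.16, 7.55 and 7.71 in Di at 48 h, against 8.13, 8.38 and 8.07 in control at 48 h (adjusted p = 0.0217). COL1A1 overlapped, with 6.56, 7.13 and 7.13 in Di at 48 h, against 7.29, 7.09 and 6.93 in control at 48 h (adjusted p = 0.509), and COL3A1, PDGFRA and PDGFRB stayed under the floor on every array. The mean log2 value of all 6 was 5.14 to 5.33 per array in Di at 48 h and 5.52 to 5.59 in control at 48 h, against 5.84 to 6.07 in Di at 12 h and 6.05 to 6.10 in control at 12 h. Of the 5 epithelial markers, KRT19 (-1.19), CDH1 (-1.33) and EPCAM (-0.65) were called lower in Di at 48 h and KRT18 (0.20) higher, and KRT8 (0.13) was not called, with the list's mean at 10.37 to 10.56 per array in Di at 48 h and 11.02 to 11.11 in control at 48 h. The part of these markers in the fall of CYP1B1 was not tested.

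Of the 4 probe sets of CYP1B1, 3 passed the floor and moved alike at 48 h. Probe set 202437_s_at read 5.42, 5.29 and 5.86 in Di at 48 h, against 7.28, 7.64 and 7.06 in control at 48 h (-1.81 ± 0.216, limma over all kept probe sets, adjusted p = 4.59e-05). Probe set 202435_s_at read 3.80, 3.95 and 4.05 in Di at 48 h, against 6.28, 6.55 and 6.20 in control at 48 h (adjusted p = 2.34e-07). Since its Di mean of 3.93 lies under the floor, that fall is given as at least 5.09-fold, the control mean against the floor. The probe set 202434_s_at lay between 2.12 and 2.35 on all arrays. At 12 h the 3 probe sets stood at 0.13 to 0.17 with adjusted p-values of 0.601 to 0.707.

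**Figure D3:**
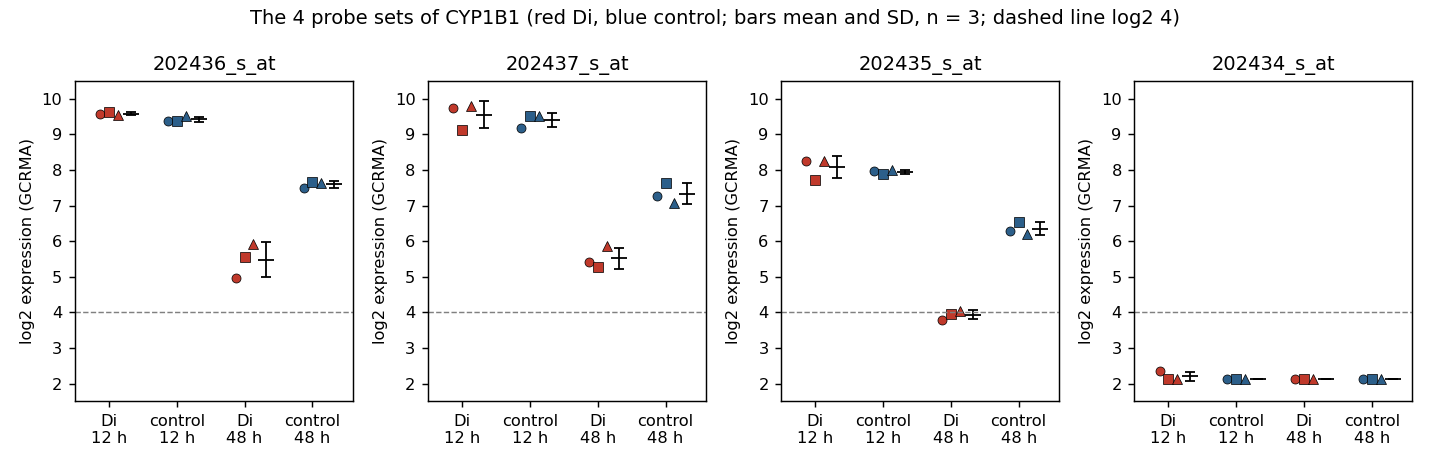
Log2 expression of CYP1B1 on each array for its 4 probe sets (1 panel each, same vertical scale), with Di left of control at each time, bars for mean and SD, and the floor of 4 as a dashed line. In the first 3 panels every Di array at 48 h lies under every control array at 48 h, which lies under all 12 h arrays, and 202434_s_at lies between 2.12 and 2.35.

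CYP1A1, the cytochrome P450 whose induction is the standard readout of AhR activation, lay between 2.11 and 2.16 on all 12 arrays. The group means were 2.11 in Di, against 2.12 in control, at 12 h, while those of 48 h were 2.14 in Di, against 2.13 in control. With no filter the limma adjusted p was 0.891 at 12 h and 0.613 at 48 h. Both groups were under the floor at both times, so this probe set (205749_at) gives no level in either and no fold.

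ALDH3A1, an aldehyde dehydrogenase that AhR ligands induce in liver-derived cells, also stayed under the floor. It read 2.63, 3.68 and 2.63 in Di at 12 h, against 2.69, 2.64 and 2.65 in control at 12 h. It read 2.65, 3.25 and 2.63 in Di at 48 h, against 2.65, 2.63 and 2.65 in control at 48 h. Only replicate 2 of each Di group stood off from a value of about 2.65, and none reached 4, and without a filter limma gave it an adjusted p of 0.711 at 12 h and 0.643 at 48 h.

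TIPARP, a mono-ADP-ribosyltransferase that marks AhR for degradation, read 11.82, 11.63 and 11.78 in Di at 12 h, against 11.69, 11.74 and 11.68 in control at 12 h. At 48 h it read 11.72, 11.75 and 11.96 in Di, against 11.91, 12.02 and 11.95 in control. Di and control overlapped at both times, and the 4 group means spanned 11.71 to 11.96. In order they were 11.96 ± 0.0522 (control, 48 h), 11.81 ± 0.129 (Di, 48 h), 11.74 ± 0.101 (Di, 12 h) and 11.71 ± 0.0334 (control, 12 h), each overlapping the next.

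The change of TIPARP was 0.04 ± 0.0803 at 12 h (log2, limma adjusted p = 0.789, 95% interval -0.14 to 0.22) and -0.15 ± 0.0803 at 48 h (adjusted p = 0.141, interval -0.33 to 0.03). An increase of TIPARP by Di beyond 0.22 at 12 h or 0.03 at 48 h thus lay outside the intervals of this fit. These bounds depend on the scaling. With arrays centred on the median of the tested genes, the change was 0.12 ± 0.0712 at 12 h and -0.11 ± 0.0712 at 48 h. Without replicate 3 of Di at 48 h the 48 h change was -0.23 and was called (adjusted p = 0.0365). Between the vehicle cultures TIPARP was higher at 48 h by 0.25 ± 0.0803 (adjusted p = 0.0206), a call that ended without replicates 1 or 3 of control at 12 h (0.0523 and 0.0586) or replicate 2 of control at 48 h (0.0685).

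**Figure D4:**
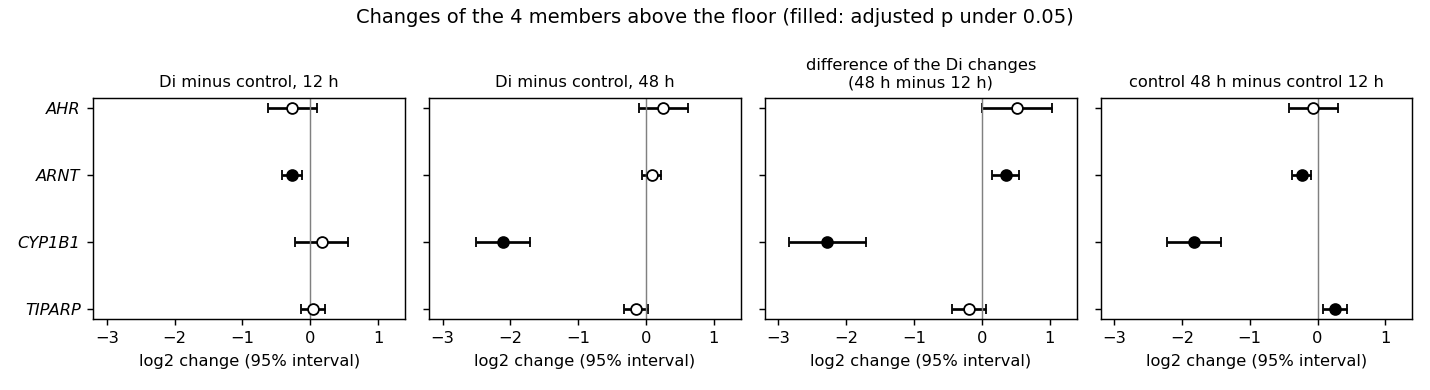
Log2 change (horizontal axes, with 95% intervals from the limma fit) of the 4 genes above the floor in the 4 comparisons, 1 panel each. Filled symbols passed an adjusted p of 0.05: ARNT (-0.27) in Di minus control at 12 h, CYP1B1 (-2.11) at 48 h, both genes in the difference of the changes, and ARNT, CYP1B1 and TIPARP between the control groups.

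The genes most alike in pattern were those with the highest Pearson correlation of log2 values over the 12 arrays, among genes with a range of at least 1. For CYP1B1 these were LRRN4 (r = 0.999), SESTD1 (r = 0.997) and PIMREG (r = 0.995). LRRN4, a leucine-rich repeat protein, averaged 4.25 in Di, against 6.87 in control, at 48 h, with 9.51 in Di, against 9.28 in control, at 12 h. Its lowest value, 3.36 on replicate 1 of Di at 48 h, lay under the floor. PIMREG, a protein of dividing cells, averaged 4.94 in Di, against 6.72 in control, at 48 h, with 9.05 in Di, against 8.85 in control, at 12 h. The points share the 4 groups and the same 12 arrays, so these correlations are a description of pattern and carry no test.

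For AHR the nearest genes were EVI5 (r = 0.959), KDM2A (r = 0.953) and the coactivator EP300 (r = 0.942), and all 3 had their lowest value on replicate 2 of Di at 12 h and their highest on replicate 2 of Di at 48 h, as AHR did. Without that 12 h array, over 11 arrays, these correlations were 0.886, 0.856 and 0.819. For ARNT they were MCM3AP (0.967), PTOV1 (0.931) and ACIN1 (0.899), which also had their lowest value on replicate 2 of Di at 12 h, and without it they stood at 0.972, 0.95 and 0.883. For TIPARP they were the zinc transporter SLC30A4 (0.941), CNPPD1 (0.928) and the noncoding RNA LINC00674 (0.92).

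Around the 7 genes, 6 lists with 50 other genes of the pathway were read, of which 47 were on the array with a probe set of their own and 33 passed the filter. At 12 h 1 of the 33 was higher and 3 were lower, against 3.9% and 9.78% of all genes. At 48 h 15 were higher and 5 lower, against 22.9% and 28% of all genes. The median change of the 33 at 48 h was 0.16, beside -0.02 over all tested genes. The lists were chosen with earlier results of these data known. Their counts beside the shares of all genes are therefore a description and no test.

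The receptor's chaperones were higher in Di than in control at 48 h, all 3 that passed, beside 22.9% of all genes. HSP90AA1, the inducible HSP90, averaged 14.58 ± 0.00598 in Di, against 13.86 ± 0.0618 in control, at 48 h (0.72 ± 0.0706, limma adjusted p = 7.16e-06). HSP90AB1, the constitutive form, was higher by 0.39 and PTGES3, which encodes p23, by 0.44 (limma adjusted p of 0.000828 and 0.000211). In the vehicle cultures all 3 were lower at 48 h than at 12 h, with log2 changes of -0.72 to -0.21. HSP90AA1 averaged 14.48 in Di, against 14.58 in control, at 12 h. Within Di, from 12 h to 48 h, HSP90AB1 averaged 12.78 and then 12.93, and PTGES3 13.60 and then 13.41. None of the 3 was called at 12 h.

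Among 7 relatives of AhR and ARNT in the bHLH-PAS family that passed, 3 were higher and 1 was lower at 48 h. The shares of all genes were 22.9% and 28%, with 50.9% called in either direction. BMAL1, the clock relative of ARNT, read 9.40, 9.34 and 9.25 in Di at 48 h, against 7.55, 7.50 and 7.86 in control at 48 h (1.69 ± 0.111, 3.23-fold, limma adjusted p = 2.69e-07). Its clock partner NPAS2 rose by 1.02 (adjusted p = 0.000224), and the hypoxia factor EPAS1 by 0.83 (6.15e-06). SIM1, a developmental factor that also pairs with ARNT, read 6.61, 6.24 and 5.98 in Di at 48 h, against 8.53, 8.48 and 8.25 in control at 48 h (-2.14 ± 0.181, limma adjusted p = 2.19e-06). CLOCK (0.16), BMAL2 (0.05) and HIF1A (-0.15) did not pass at 48 h, and none of the 7 was called at 12 h. Control at 48 h minus control at 12 h was 0.95 for EPAS1, 0.31 for BMAL1, -0.46 for NPAS2 and -0.84 for SIM1, all called.

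Of 7 coregulators that passed, 2 were higher and 1 was lower at 48 h, beside 22.9% and 28% of all genes. NRIP1, a corepressor of nuclear receptors, read 8.31, 8.80 and 8.70 in Di at 48 h, against 9.86, 10.00 and 9.66 in control at 48 h (-1.24 ± 0.137, limma adjusted p = 1.83e-05). The coactivators CREBBP (0.45, adjusted p = 0.0221) and MED1 (0.41, 0.0164) were called higher. The call of CREBBP ended in 6 of 21 alternatives and that of MED1 in 3 of 21. Averaging the kept probe sets of a gene ended both (0.15 and 0.23). Leaving out 1 array ended the calls for CREBBP without replicates 2 or 3 of Di (0.42 and 0.45) or replicate 3 of control at 48 h (0.42), and for MED1 without replicate 3 of either group (0.38 and 0.35). At 12 h NCOA1 (-0.48, adjusted p = 0.00784) and the remodelling ATPase SMARCA4 (-0.39, 0.0244) were called lower, beside 9.78% of all genes. The call of SMARCA4 ended in 7 of 21 alternatives. Among these were centring on the median of the tested genes (-0.30, limma adjusted p = 0.075) and the 12 h arrays alone (adjusted p = 0.101). It also ended without replicates 2 or 3 of Di (-0.36 and -0.35) or of control (-0.32 and -0.34) at 12 h.

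Of 13 other reported targets, 7 passed the filter. At 48 h 4 of them were higher and 1 was lower, beside 22.9% and 28% of all genes. NQO1, a quinone reductase that AhR and the oxidant sensor NRF2 both induce, read 13.44, 13.39 and 13.37 in Di at 48 h, against 9.67, 9.66 and 9.82 in control at 48 h (12.9-fold, 3.69 ± 0.0801, limma adjusted p = 5.35e-11). STC2, a secreted glycoprotein, rose 7.61-fold, and SLC7A5, a transporter of large neutral amino acids including tryptophan, rose 3.92-fold (limma adjusted p of 1.08e-07 and 1.98e-06). The growth factor EREG rose by 0.67 (adjusted p = 0.0109). NEDD9, an adhesion scaffold, read 5.15, 5.42 and 5.31 in Di at 48 h, against 6.88, 7.00 and 6.86 in control at 48 h (-1.62 ± 0.104, limma adjusted p = 2.34e-07, and -1.01 with the mean of its probe sets). The vehicle cultures also differed between the times. Control at 48 h minus control at 12 h was 2.89 for STC2, 2.65 for SLC7A5 and 1.52 for EREG, all called higher. It was -1.01 for NEDD9 and -0.78 for NQO1, both called lower. At 12 h STC2 averaged 3.92 in Di and 4.03 in control, near the floor.

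NQO1 (0.46, limma adjusted p = 0.0058) and NEDD9 (-0.55, 0.00832) were the members of this list called at 12 h. These are 1 higher and 1 lower, beside 3.9% and 9.78% of all genes. CYP1A2, the hepatic relative of CYP1A1, has 2 probe sets on the array. The probe set without the mark for cross-hybridisation did not pass the filter. CYP1A2 was therefore read from the marked probe set, which stood between 4.81 and 5.09 on all arrays. The gene counts as passing the filter by that probe set alone. The direction of the targets called at 48 h was thus mixed, with NQO1, STC2, SLC7A5 and EREG higher and CYP1B1 and NEDD9 lower. TIPARP (-0.15), NFE2L2 (0.04) and CYP1A2 (0.10) were not called at 48 h. CYP1A1, AHRR, ALDH3A1, CYP2S1, XDH, ABCG2, PTGS2 and IGFBP1 did not pass the filter.

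Enzymes of the path that breaks down tryptophan were mostly under the floor, with 4 of 10 passing. At 48 h 1 of the 4 was called higher and 1 lower, beside 22.9% and 28% of all genes. KYNU, the kynureninase, read 7.56, 7.55 and 6.94 in Di at 48 h, against 4.26, 4.13 and 3.93 in control at 48 h (9.45-fold, with 1 of the 3 control arrays just under the floor, 3.24 ± 0.173, limma adjusted p = 5.86e-08, and 2.39 on the log2 scale with the mean of its probe sets). KYAT3, a kynurenine aminotransferase, fell by 0.40 (adjusted p = 0.000983). The first enzymes of the path, TDO2, IDO1 and IDO2, stayed under the floor on every array, with group means of 2.17 to 2.48.

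Of 5 P450 partners and ALDH3 relatives that passed, 2 were higher and 1 was lower at 48 h, beside 22.9% and 28% of all genes. POR, the reductase that passes electrons to CYP1B1 and the other microsomal P450 enzymes, read 10.40, 10.20 and 10.31 in Di at 48 h, against 7.00, 6.91 and 7.05 in control at 48 h (9.97-fold, 3.32 ± 0.121, limma adjusted p = 3.02e-09). ALDH3A2, the fatty aldehyde relative of ALDH3A1, rose by 0.98 (adjusted p = 1.82e-06), and the cytochrome CYB5A fell by 0.74 (0.00095). POR thus moved opposite to CYP1B1 at 48 h, and none of the 5 was called at 12 h.

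**Figure D5:**
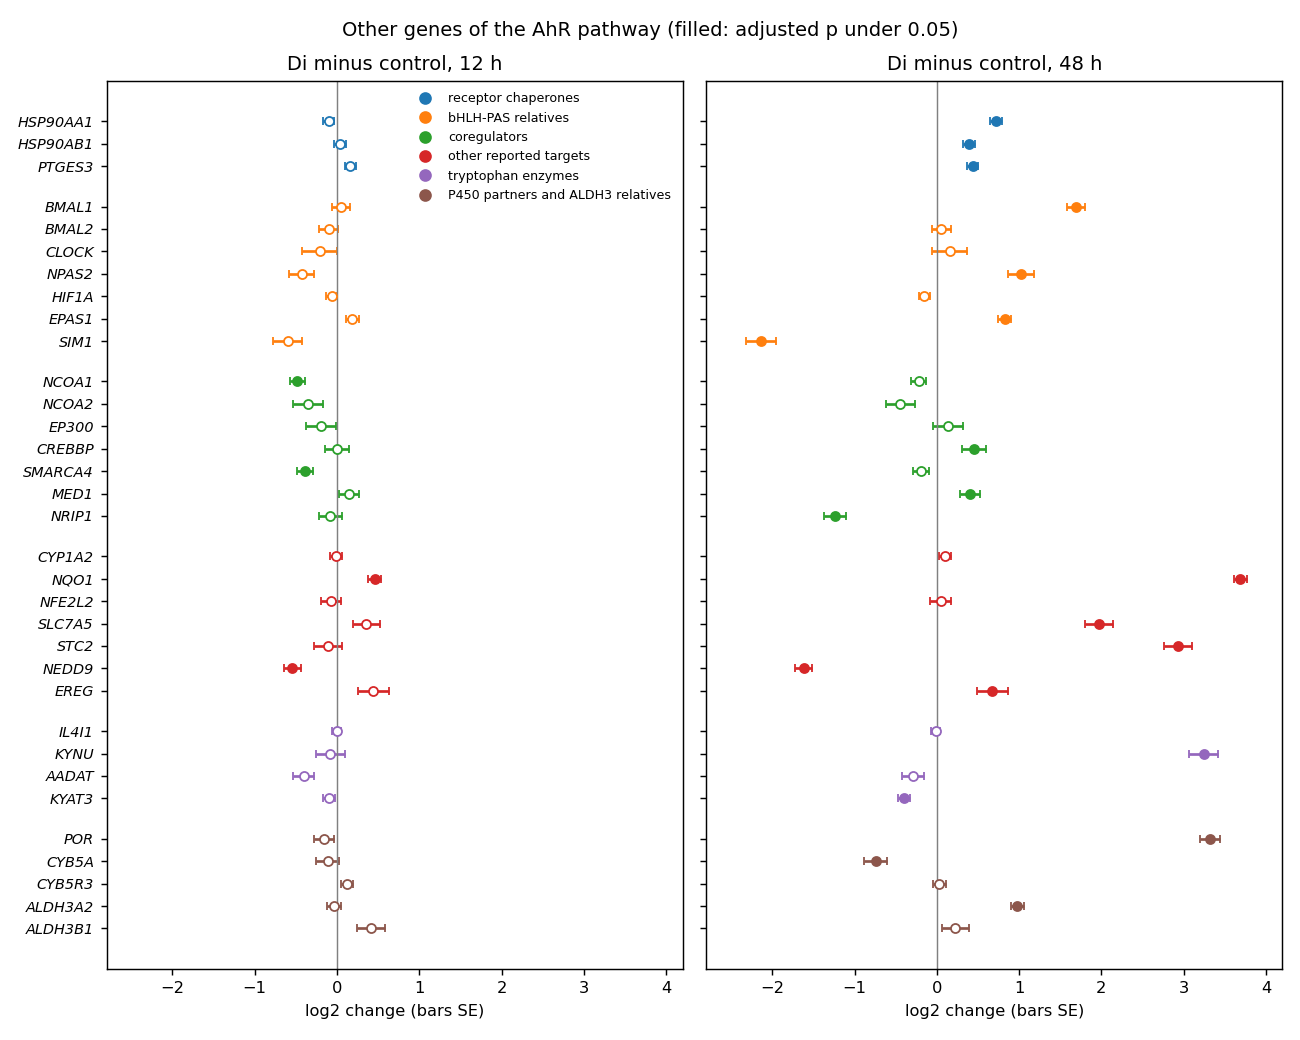
Log2 change in Di minus control (horizontal axes, bars SE) of the 33 other pathway genes that passed the filter, with 12 h on the left and 48 h on the right and colours for the 6 lists. Filled symbols passed an adjusted p of 0.05, which 4 genes did at 12 h and 20 at 48 h, from SIM1 at -2.14 to NQO1 at 3.69.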

How the data were processed

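RNA of HK-2 cells in 4 groups of 3 was read on 12 Affymetrix arrays. The authors deposited log2 values from GCRMA, per the submitters' processing notes (version and settings not given in the sources used here). Arrays give no counting depth, so their number limits the precision. Of 54675 probe sets, 62 controls were left out, and 41097 had 1 gene in the platform annotation. A probe set was kept above log2 4 in at least 3 arrays (21715 kept), and 1 kept probe set stood for each gene, that of highest mean and not _x_at if possible (10626 genes).

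All 12 arrays entered 1 limma fit (version 3.58.1, R 4.3.3) with a mean for each group, with two-sided moderated tests, Benjamini-Hochberg adjustment over the 10626 genes and calls at an adjusted p of 0.05. The fit was tested on simulated data. Errors are SEs of log2 changes and SDs of 3 arrays. The genes and lists were chosen with earlier results of these data known. Listed genes are named when called with a log2 change of at least 0.5 (at most 6 per list), or where a count of 5 or fewer needs the name, and 3 genes are named as most alike to each member. NCOA3, SERPINB2 and CD68 were not analysed here. Alternatives covered filters, moderation, scaling, probe sets, a block and single arrays.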

Additional observations from a re-analysis of the deposited data

Results flagged for a closer look

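The change of CYP1B1 in Di against control differed between the times by -2.28 ± 0.255 (log2, 48 h minus 12 h, limma adjusted p = 4.78e-05), as a test of the difference itself showed. It stood at 0.17 at 12 h and at -2.11 at 48 h.

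The change of ARNT also differed between the times, by 0.35 ± 0.0915 (limma adjusted p = 0.0107), from probe set 218221_at. Probe sets 230619_at and 218222_x_at gave 0.32 and 0.22, and 231016_s_at gave -0.47, none of them called (adjusted p of 0.134 to 0.556).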

How the results depend on the processing

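The fall of CYP1B1 at 48 h was called in all 23 alternatives. It lay between -2.33 and -1.81 (log2) in 22 of them, and in the probe set 202435_s_at, whose Di mean is under the floor, it was at least 5.09-fold. At 12 h no listed member was called (0 of 4) with trend and robust moderation, quantile normalization, the mean of all kept probe sets, the 12 h arrays alone or centring on the tested genes, since ARNT missed the threshold, and 0 to 1 were called when 1 array was left out. Leaving out 1 array gave 1 to 2 members called at 48 h and 2 to 3 for the difference of the changes, which stood at 1 with the mean of all kept probe sets. That mean also gave 9 pathway genes at 12 h in place of 4. Over all genes, 575 were called at 12 h with the 12 h arrays alone and 745 to 1457 without 1 array (745 without replicate 2 and 778 without replicate 3 of control at 12 h), against 1453. Why these values moved was not tested, beyond the fewer arrays. ARNT changed sign in the probe set 231016_s_at for Di at 12 h (0.27), Di at 48 h (-0.19), the difference (-0.47) and control over time (0.27), in 230619_at at 48 h (-0.30) and in the mean of probe sets at 48 h (-0.0626). AHR in control over time stood at -0.12 to 0.0294 without 1 array and at 0.0246 centred on the tested genes, and TIPARP at 12 h at -0.0007 to 0.10 without 1 array. The difference for AHR was called only without replicate 1 of Di at 12 h (0.65, adjusted p = 0.0477), and it stood at 0.30 without replicate 2. Same-numbered Di and control arrays had correlations of their deviations from -0.264 to 0.155, so the numbers were not taken as pairs. With the replicate number as a block, 1 member was called at 12 h, 1 at 48 h, 2 for the difference and 3 between controls, 3 and 20 pathway genes at 12 h and 48 h, and 1003, 5076, 3645 and 5257 genes in all, and among the named genes the block ended no call but that of SMARCA4 (adjusted p = 0.0503). Genes under the floor in both groups have no fold, which limits what can be read of CYP1A1, AHRR and ALDH3A1.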

Other observations

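Reported targets of the receptor that did not pass the filter were CYP2S1, XDH, ABCG2, PTGS2 and IGFBP1. CYP2S1, another P450, read 2.68, 3.98 and 3.50 in Di at 48 h, against 2.66, 2.65 and 2.66 in control at 48 h, under the floor throughout. XDH, the xanthine dehydrogenase, read 2.41, 2.58 and 4.40 in Di at 48 h, against 2.33, 2.35 and 2.32 in control at 48 h, so that only replicate 3 of Di passed a log2 value of 4. ABCG2, PTGS2 and IGFBP1 stayed under the floor on every array, with highest values of 2.24, 2.83 and 2.77.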
